A study of Homo sapiens with 6 samples.

Results

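Lamins, proteins that bind them, and the high mobility group (HMG) proteins of chromatin were read in IMR90 fibroblasts, growing or induced to senesce. The genes were the A-type lamin gene LMNA, the B-type lamin genes LMNB1 and LMNB2, the lamin-binding genes LBR and TMPO, the AT-hook genes HMGA1 and HMGA2, and the HMG-box genes HMGB1, HMGB2 and HMGB3. Every probe set whose platform gene symbol is one of these 10 genes was taken, which gave 34 of the 54613 probe sets of the array, and none of the 34 carries a further gene symbol. The values are MAS5 signals, the linear brightness that the Affymetrix algorithm gives for one probe set on one array. A probe set was tested where it was above the median signal of the array on at least 2 of the 6 arrays, which left 28 of the 34. One of the 28, TMPO 209754_s_at, passed through the growing arrays alone and had to differ, so it is left out of the counts over the 10 genes, which run over 27.

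IMR90 cells are normal human diploid lung fibroblasts, and those used here carry ER:Ras, an oncogenic Ras that 4-hydroxytamoxifen (4-OHT) switches on. RB-KD OIS cells had 6 days in 100 nM 4-OHT to induce oncogene-induced senescence (OIS) and had received siRNA against RB1 4 days before RNA was taken. The paper reports that DNA replication partly recovered in RB-KD OIS cells, so OIS names the treatment here. Ctrl-KD OIS cells had the same 4-OHT treatment with control siRNA, and growing cells had neither 4-OHT nor siRNA, so that 4-OHT and transfection cannot be told apart where an OIS state is set against growing cells. Each state had 2 biological replicates, 1 array each, and ER:Ras was present in all 3 states. Both OIS states are called RB-KD and Ctrl-KD for short.

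Lamins are intermediate filament proteins that form a meshwork under the inner nuclear membrane. Heterochromatin is tethered to this meshwork through membrane proteins such as LBR and some of the LAP2 proteins made from TMPO, and loss of lamin B1 is a widely used sign of senescence. HMGA proteins bind AT-rich DNA through their AT-hooks and are known as building blocks of the senescence-associated heterochromatin foci (SAHF), whereas HMGB proteins bend DNA through HMG boxes and HMGB1 also acts outside the cell as an alarm signal. RB, the product of RB1, holds E2F transcription factors in check and with them many genes of dividing cells. The paper also reports moderately fewer SAHF-positive cells after RB knockdown in OIS.

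The knockdown was seen on both arrays. RB1 gave 221.7 and 228.5 in RB-KD cells, against 2578 and 1914 in Ctrl-KD cells, and 2627 and 2528 in growing cells (log2 fold change -3.30 between the OIS states, adjusted p = 3.36e-06). Array medians lay between 46 and 51.8. All 8 fibroblast markers were above the array median in every state, with summed signals of 136482 to 162363 in RB-KD, 124258 to 124647 in Ctrl-KD and 180642 to 182409 in growing cells, while the 4 epithelial, 4 endothelial and 3 leukocyte markers summed to between 67.9 and 269.7 per array, with at most 2 of each list above the median in a state. Above the median on both arrays were 2 epithelial markers in RB-KD, 1 in Ctrl-KD and 2 in growing cells. For leukocyte markers the counts were 0, 1 and 2 in the same order, and 1 endothelial marker was above it in each state. By contrast, CDH1, KRT5 and CDH5 stayed at or under 17.7 on all arrays. Log2 signals were compared with limma over all 6 arrays, and p-values were adjusted over all 30139 probe sets tested. A two-sided exact permutation test of 2 arrays against 2 cannot go below 0.333. The 3 comparisons share arrays, so their values are set side by side and not correlated.

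Promoter sequence was read for the 8 genes that matched the RefSeq promoter table of GRCh38.p14, which holds 16 windows for them, each from 250 bases before to 50 bases after an annotated start. HMGA2 and HMGB2 had no match. Each window was searched on both strands for E2F-type letters (TTTCCCGC, TTTGGCGC, TTTCGCGC or TTTGCCGC), for the cell cycle homology region (TTTGAA) and for the CCAAT box (CCAAT), none of which overlapped another in the windows shown. For 3 genes 1 window each was chosen because it holds a match. They are those of LMNB1 and TMPO, the genes with the largest differences between RB-KD and Ctrl-KD cells, and of LMNA, whose brightest probe set was not called between them. The LMNB1 window lies at chr5:126776886-126777185, that of TMPO at chr12:98515323-98515622 and that of LMNA at chr1:156082323-156082622, all on the plus strand. Capitals mark the matched letters, read 5′ to 3′ on the strand of the gene.
LMNB1: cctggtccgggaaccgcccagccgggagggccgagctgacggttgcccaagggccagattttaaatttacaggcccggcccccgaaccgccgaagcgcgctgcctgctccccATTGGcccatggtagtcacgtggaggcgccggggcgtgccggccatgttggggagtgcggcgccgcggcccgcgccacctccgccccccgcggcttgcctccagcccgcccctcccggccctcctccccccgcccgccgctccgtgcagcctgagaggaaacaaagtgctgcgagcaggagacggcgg
TMPO: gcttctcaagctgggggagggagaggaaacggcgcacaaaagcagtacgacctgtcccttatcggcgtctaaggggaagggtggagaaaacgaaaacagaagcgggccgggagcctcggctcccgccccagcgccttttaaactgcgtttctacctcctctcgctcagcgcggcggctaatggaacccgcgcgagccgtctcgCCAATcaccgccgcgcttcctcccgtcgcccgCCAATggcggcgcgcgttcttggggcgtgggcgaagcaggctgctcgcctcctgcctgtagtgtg
LMNA: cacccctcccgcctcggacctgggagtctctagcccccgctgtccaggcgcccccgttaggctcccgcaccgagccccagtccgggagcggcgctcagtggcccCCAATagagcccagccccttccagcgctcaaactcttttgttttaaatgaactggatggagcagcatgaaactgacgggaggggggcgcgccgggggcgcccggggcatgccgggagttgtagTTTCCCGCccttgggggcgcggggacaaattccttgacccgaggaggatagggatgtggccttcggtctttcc
The LMNB1 window shown holds 1 CCAAT box on the opposite strand (printed as ATTGG), whose first base is at -138 from the start. TMPO has CCAAT boxes at -47 and -15. LMNA has the only E2F-type match of the 16 windows, TTTCCCGC at -23, together with a CCAAT box at -146. Among all 35116 windows of this length, 3.31% hold the E2F-type letters, 15.2% the cell cycle homology region and 34.6% the CCAAT box. Over the 16 windows, 3 held the cell cycle homology region (1 each of LMNB2, HMGB1 and HMGB3) and 9 held a CCAAT box. The other LMNB1 window and the other 2 LMNA windows held no match, and the other TMPO window overlaps the one shown and holds the same CCAAT boxes. These matches describe the letters of the window, and which start was used in these cells was not measured.

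In Ctrl-KD cells 19 of the 27 probe sets were lower than in growing cells and 5 were higher, and the 5 were all of HMGA2. Among all probe sets tested 34.1% were called in this comparison, 18.3% lower and 15.8% higher. Brighter probe sets were called more often. With the filter at percentile 70 of the array in place of the median, 4931 of 17833 were lower and 4510 higher. The median log2 fold change was -1.02 over the 27 probe sets and -0.05 over all probe sets tested. Arrays of both states did not overlap for 25 of the 27, against 67.8% of all. In RB-KD cells 12 probe sets were higher than in Ctrl-KD cells and 3 were lower, against 8.96% and 7.93% of all (16.9% in either direction), and the 3 were again of HMGA2. The median was 0.37 (-0.02 over all), and 21 of the 27 did not overlap, against 55.3% of all. With the filter at percentile 70, 2857 of 17833 probe sets were higher in RB-KD than in Ctrl-KD cells and 2678 lower. Where the variance of dim and bright probe sets was drawn towards one common value (no trend in the prior variance), the calls left between the OIS states were 3, namely LMNB1 and TMPO 224944_at and 203432_at. Set against growing cells, RB-KD cells had 14 lower and 4 higher probe sets, against 16.5% and 14.0% of all (30.5% in either direction), with a median of -0.41 (-0.07 over all) and 24 without overlap (67.1% of all). The filter at percentile 70 gave 4551 lower and 4059 higher of 17833 in this comparison. In bulk RNA such as this, fewer expressing cells and less RNA per cell cannot be told apart.

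**Figure D1:**
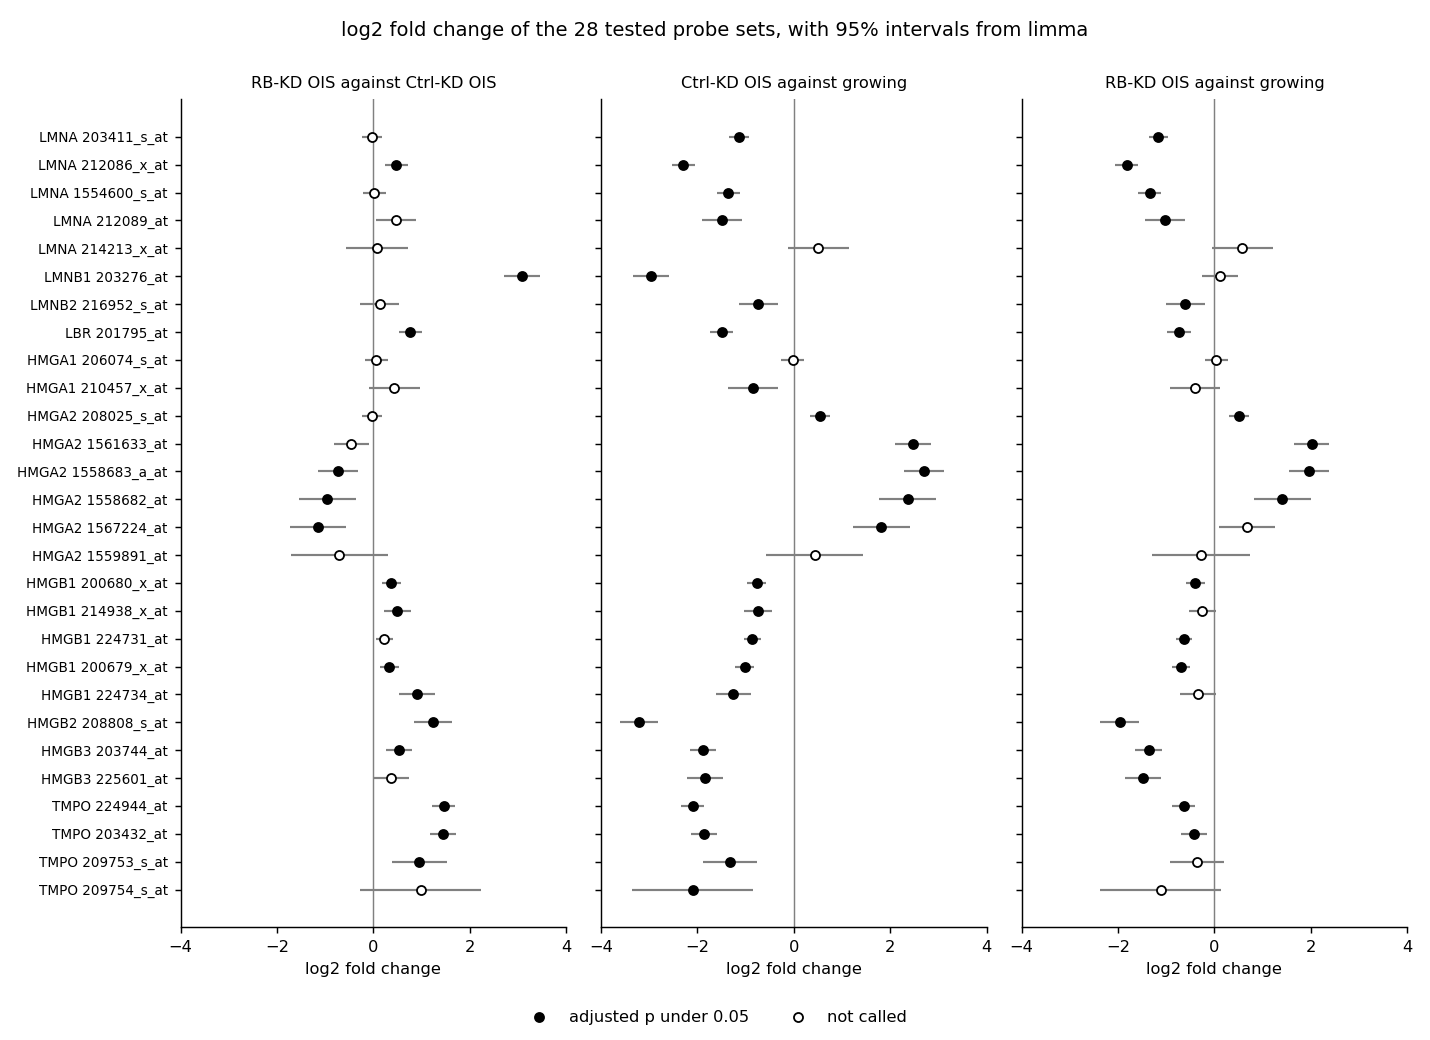
Log2 fold changes of the 28 tested probe sets in 3 comparisons (x axis, with 95% intervals from limma), 1 row per probe set, TMPO 209754_s_at included. Filled points have an adjusted p under 0.05. All HMGA2 points lie right of 0 in Ctrl-KD against growing cells, and LMNB1 has the largest rise between the OIS states (3.08).

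The lamin genes gave unlike patterns. LMNB1, which encodes lamin B1, was read by 1 probe set. It gave 2197 and 3202 in RB-KD cells, 307 and 322 in Ctrl-KD cells, and 2528 and 2365 in growing cells. Both Ctrl-KD arrays stood far under the other 4, which overlapped. LMNB1 was thus 7.79-fold lower in Ctrl-KD than in growing cells (log2 fold change -2.96, SE 0.16, adjusted p = 1.25e-06) and 8.45-fold higher in RB-KD than in Ctrl-KD cells (3.08, SE 0.16, adjusted p = 8.10e-06). RB-KD and growing cells were not separated (0.12, 95% interval -0.25 to 0.49, adjusted p = 0.637), and without the second RB-KD array that difference was -0.15. On the percent scale, LMNB1 stood at 108% of its growing level in RB-KD cells (95% interval 84.1 to 140.0) and at 12.8% in Ctrl-KD cells (9.95 to 16.6).

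LMNB2, which encodes lamin B2, was lower in both OIS states than in growing cells. Its signals were 932 and 1453 in RB-KD, 1049 and 1069 in Ctrl-KD, and 1816 and 1714 in growing cells. Every OIS array was under both growing arrays, and the RB-KD arrays lay on either side of the Ctrl-KD ones. The log2 fold change was -0.74 in Ctrl-KD against growing cells (SE 0.18, adjusted p = 0.0108; 0.0657 without the first growing array and 0.0915 with no trend in the prior variance) and 0.14 between RB-KD and Ctrl-KD cells (95% interval -0.27 to 0.54, adjusted p = 0.674). In RB-KD against growing cells it was -0.60 (adjusted p = 0.0312), a call that was lost without either growing array or without the first RB-KD array (adjusted p 0.095 to 0.155), under median centring (-0.49, adjusted p = 0.0709), with no trend (0.149) and with 1 value per gene as the mean of its probe sets (0.0553).

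LMNA, whose transcripts give lamins A and C, had 6 probe sets, and the 4 brightest were all lower in both OIS states. The brightest (203411_s_at) gave 4029 and 3929 in RB-KD, 3806 and 4321 in Ctrl-KD, and 8846 and 8963 in growing cells. Its log2 fold change was -1.13 in Ctrl-KD against growing cells (SE 0.09, adjusted p = 1.23e-05) and -1.16 in RB-KD against growing cells (adjusted p = 1.55e-05), and the difference between RB-KD and Ctrl-KD cells was -0.03 (95% interval -0.23 to 0.18, adjusted p = 0.880). In contrast to LMNB1, both OIS states of LMNA thus lay close together under the growing cells. In 1554600_s_at the signals were 2301 and 1949 in RB-KD, 2018 and 2167 in Ctrl-KD, and 5330 and 5409 in growing cells. This probe set gave -1.36 in Ctrl-KD against growing cells (adjusted p = 1.03e-05) and 0.02 between the OIS states (95% interval -0.22 to 0.25, adjusted p = 0.934).

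The second brightest LMNA probe set, 212086_x_at, did separate the OIS states. It gave 1926 and 1871 in RB-KD, 1411 and 1315 in Ctrl-KD, and 7264 and 6149 in growing cells. The log2 fold change was -2.30 in Ctrl-KD against growing cells (adjusted p = 4.43e-07), the largest fall among the LMNA probe sets, and 0.48 in RB-KD against Ctrl-KD cells (SE 0.11, adjusted p = 0.0146). The rise between the OIS states did not pass without the second Ctrl-KD array or without either RB-KD array (adjusted p 0.0544 to 0.0832). For 212089_at the same difference was 0.46 (adjusted p = 0.124), with 476 and 375 in RB-KD, 265 and 354 in Ctrl-KD, and 880 and 841 in growing cells. Against growing cells 212089_at was lower in Ctrl-KD (-1.49, adjusted p = 0.000204) and in RB-KD cells (-1.03, adjusted p = 0.00245).

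The 2 dimmest LMNA probe sets did not follow. The signals of 214213_x_at were 140.0 and 209 in RB-KD, 165 and 161 in Ctrl-KD, and 98.7 and 132.6 in growing cells, which is higher on every OIS array, and it was not called (0.51 in Ctrl-KD against growing cells, adjusted p = 0.206). The sixth, 244225_x_at, stayed under the array median on all 6 arrays (13.0 to 48.5) and was not tested. The suffix x marks probe sets with probes that can also bind other sequences, and what the 2 dim probe sets read was not tested.

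**Figure D2:**
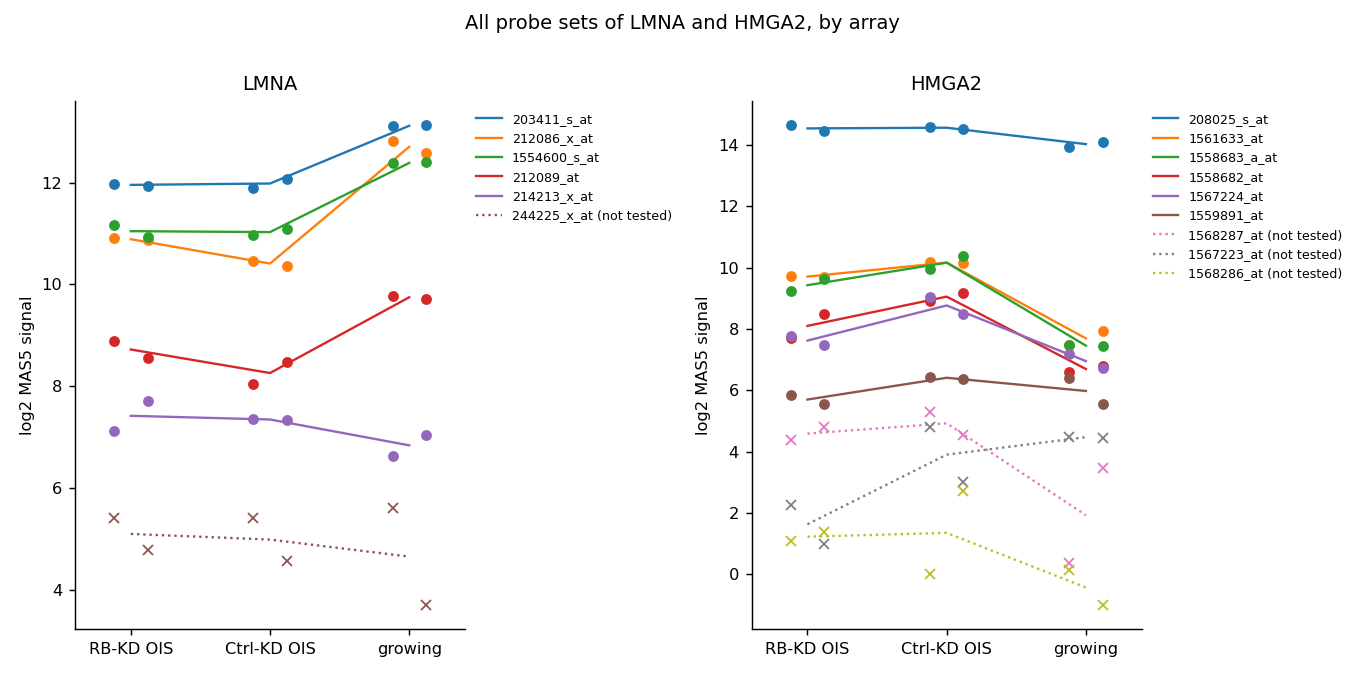
Log2 MAS5 signal (y axis) of all 6 LMNA and all 9 HMGA2 probe sets by state (x axis). Points are arrays, lines join the means of 2 arrays, and crosses with dotted lines mark the probe sets that were not tested. The 4 brightest LMNA probe sets are highest in growing cells, and the 5 HMGA2 probe sets called in Ctrl-KD against growing cells are lowest there.

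The lamin-binding genes LBR and TMPO fell in Ctrl-KD cells and stood between the other states in RB-KD cells. LBR, the lamin B receptor, gave 1866 and 2054 in RB-KD, 1093 and 1217 in Ctrl-KD, and 3405 and 3126 in growing cells. The 3 states did not overlap in any pair. LBR was 2.83-fold lower in Ctrl-KD than in growing cells (log2 fold change -1.50, SE 0.11, adjusted p = 6.66e-06) and 1.70-fold higher in RB-KD than in Ctrl-KD cells (0.76, SE 0.11, adjusted p = 0.00155; 0.0557 with no trend in the prior variance). It remained below the growing level in RB-KD cells (-0.74, adjusted p = 0.000753).

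TMPO had 5 probe sets. Its brightest, 224944_at, gave 1360 and 1355 in RB-KD, 506 and 483 in Ctrl-KD, and 2140 and 2088 in growing cells. The states were again fully separated, with replicates that differed little. The log2 fold change was -2.10 in Ctrl-KD against growing cells (SE 0.11, adjusted p = 7.09e-07), 1.46 in RB-KD against Ctrl-KD cells (adjusted p = 3.91e-05) and -0.64 in RB-KD against growing cells (adjusted p = 0.00154). Averaged over all 5 TMPO probe sets, untested ones included, the last value was 0.043 and not called (adjusted p = 0.929).

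A second TMPO probe set gave the same order. The signals of 203432_at were 1325 and 1583 in RB-KD, 516 and 551 in Ctrl-KD, and 1903 and 1977 in growing cells, with log2 fold changes of -1.86 for Ctrl-KD against growing, 1.44 for RB-KD against Ctrl-KD (adjusted p = 9.87e-05) and -0.42 for RB-KD against growing cells (adjusted p = 0.0271). The last of these calls was lost without either growing array or without the first RB-KD array (adjusted p 0.109 to 0.162), under median centring (-0.31, adjusted p = 0.104) and with no trend in the prior variance (0.101). Among the dimmer probe sets, 209753_s_at read 183 and 224 in RB-KD, 89.4 and 122 in Ctrl-KD, and 289 and 236 in growing cells. Its rise between the OIS states (0.95, adjusted p = 0.0299) did not pass without the first growing array, the first Ctrl-KD array or either RB-KD array (adjusted p 0.0512 to 0.143), nor with no filter (0.0536) or in a fit of the compared states alone (0.0583). The fourth, 209754_s_at, gave 46.9 and 45.9 in RB-KD, 31.2 and 17.7 in Ctrl-KD, and 85.2 and 118.5 in growing cells. Both OIS states lay under the array median, against which Ctrl-KD cells were lower than growing cells by at least 2.12-fold, a value given with no test since the growing arrays alone brought this probe set past the filter. The fifth, 237863_at, read 0.8 to 20.4 on the 6 arrays and was not tested.

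**Figure D3:**
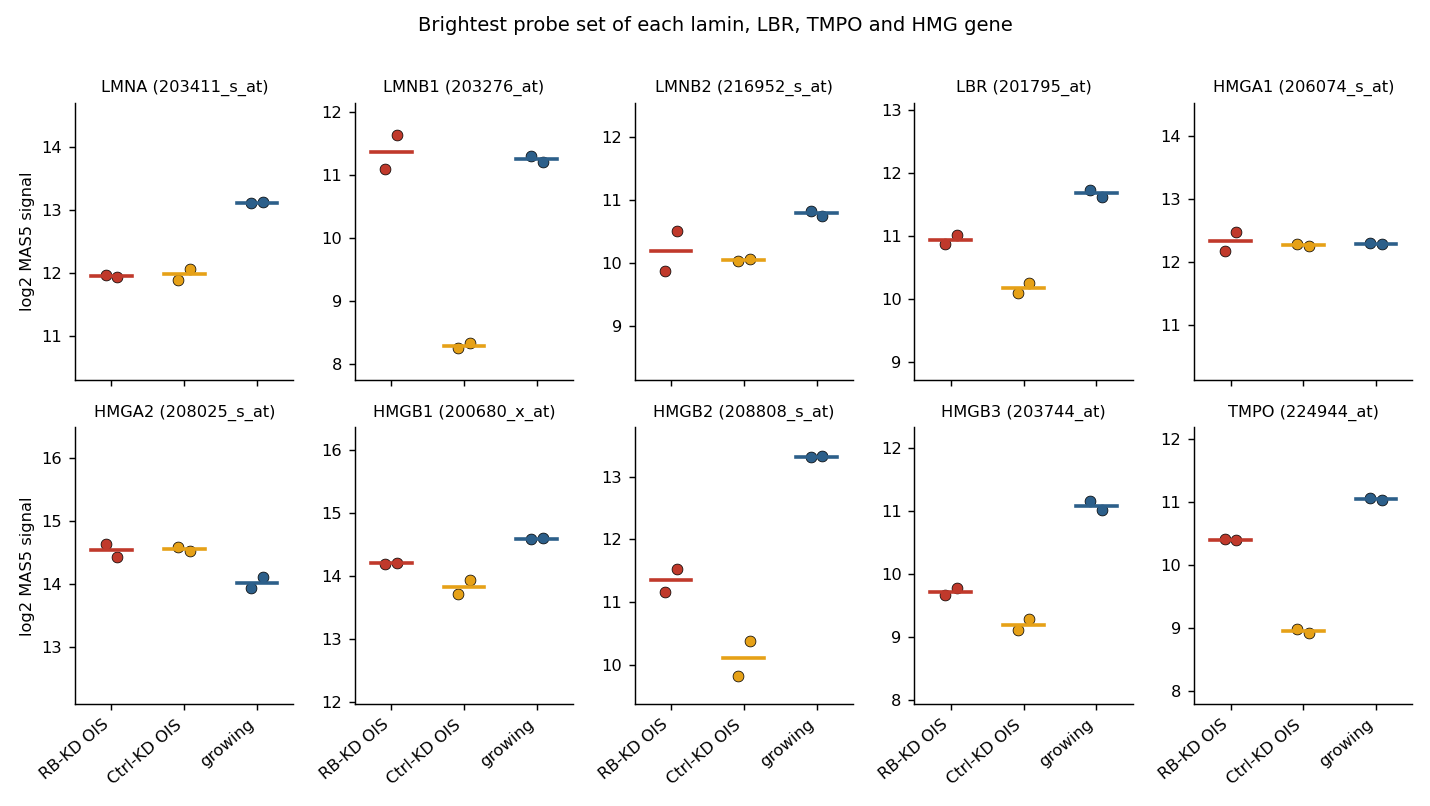
Log2 MAS5 signal (y axis) of the brightest probe set of each gene on the 6 arrays by state (x axis). Points are arrays and bars are means of 2 arrays, and every panel spans the same log2 range. In RB-KD cells LMNB1 overlaps growing cells (2197 and 3202 against 2528 and 2365), and LMNA does not (4029 and 3929 against 8846 and 8963).

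HMGA2 was the only gene of the 10 with probe sets called higher in the OIS states than in growing cells. The brightest of its 9 probe sets, 208025_s_at, gave 25571 and 22228 in RB-KD, 24853 and 23584 in Ctrl-KD, and 15779 and 17677 in growing cells. All OIS arrays were above both growing arrays, and the OIS states overlapped. The signal was 1.45-fold higher in Ctrl-KD than in growing cells (log2 fold change 0.54, SE 0.09, adjusted p = 0.00176) and 1.43-fold higher in RB-KD than in growing cells (0.51, adjusted p = 0.00275). With no trend in the prior variance both missed the threshold (adjusted p = 0.0520 and 0.0643). Between the OIS states the log2 fold change was -0.02 (95% interval -0.23 to 0.19, adjusted p = 0.909).

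Larger differences came from the dimmer HMGA2 probe sets 1561633_at, 1558683_a_at, 1558682_at and 1567224_at, whereas 208025_s_at lay at percentile 99.0 to 99.5 of its arrays. The signals of 1561633_at were 845 and 829 in RB-KD, 1170 and 1125 in Ctrl-KD, and 177 and 242 in growing cells, which is 5.55-fold higher in Ctrl-KD and 4.04-fold higher in RB-KD than in growing cells (adjusted p = 3.90e-06 and 2.07e-05). Likewise 1558683_a_at read 604 and 785 in RB-KD, 993 and 1325 in Ctrl-KD, and 178 and 173 in growing cells (6.53-fold higher in Ctrl-KD than in growing cells, adjusted p = 4.72e-06). The signals of 1558682_at were 209 and 360 in RB-KD, 485 and 583 in Ctrl-KD, and 97.4 and 110.0 in growing cells. Its log2 fold change in Ctrl-KD against growing cells was 2.36 (adjusted p = 0.000105), and for 1567224_at it was 1.82 (adjusted p = 0.000494). Probe sets of one gene are not replicates, and set side by side they ranged from 0.43 to 2.71 in this comparison. What transcripts the dimmer HMGA2 probe sets read was not tested, so the size of the difference for the gene stays uncertain.

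Dimmer probe sets of HMGA2 also separated the OIS states. RB-KD cells were lower than Ctrl-KD cells in 3 of them, with log2 fold changes of -0.74 in 1558683_a_at (adjusted p = 0.0246), -0.96 in 1558682_at (adjusted p = 0.0359) and -1.15 in 1567224_at (adjusted p = 0.0157). The last gave 220 and 176 in RB-KD, 525 and 361 in Ctrl-KD, and 145.6 and 105.2 in growing cells. In 1561633_at the difference was -0.46 and missed the threshold (adjusted p = 0.0915; 0.0470 in a fit of the compared states alone). These 3 calls were not stable. The first was lost without the second Ctrl-KD or the first RB-KD array (adjusted p = 0.141 and 0.160), the second without either Ctrl-KD or the first RB-KD array (adjusted p 0.0744 to 0.194) and with no filter (0.0593), and the third without the first Ctrl-KD or the second RB-KD array (adjusted p = 0.102 and 0.0909). The sixth probe set, 1559891_at, lay near the array median (47.0 to 86.8) with no call, and 1568287_at, 1567223_at and 1568286_at were under it on all arrays (0.5 to 39.2) and were not tested.

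HMGA1, the other AT-hook gene, was not called in its brightest probe set. The signals of 206074_s_at were 4649 and 5722 in RB-KD, 4997 and 4878 in Ctrl-KD, and 5026 and 4990 in growing cells. The states overlapped in every pair, and the log2 fold changes were -0.02 for Ctrl-KD against growing (95% interval -0.26 to 0.22), 0.06 for RB-KD against Ctrl-KD (-0.18 to 0.30) and 0.04 for RB-KD against growing cells (-0.20 to 0.28). The first of these was 0.072 under median centring. The dimmer 210457_x_at, with the suffix x, gave 194 and 278 in RB-KD, 152 and 193 in Ctrl-KD, and 305 and 310 in growing cells. It was lower in Ctrl-KD than in growing cells (-0.84, adjusted p = 0.0189), a call that was lost without either growing array or without the first Ctrl-KD array (adjusted p 0.0814 to 0.0976) and with no trend (0.0624).

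The HMGB genes were all lower in Ctrl-KD than in growing cells and fell by different amounts. HMGB2, an HMG-box protein that is abundant in dividing cells, had the largest fall of the 10 genes by the brightest probe set. Its probe set 208808_s_at gave 2299 and 2966 in RB-KD, 914 and 1342 in Ctrl-KD, and 10149 and 10273 in growing cells. Each state was apart from the others, with RB-KD cells in between. HMGB2 was 9.22-fold lower in Ctrl-KD than in growing cells (log2 fold change -3.21, SE 0.18, adjusted p = 1.21e-06) and 2.36-fold higher in RB-KD than in Ctrl-KD cells (1.24, SE 0.18, adjusted p = 0.00160; 0.0696 with no trend in the prior variance). RB-KD cells kept 25.6% of the growing signal (95% interval 19.4 to 33.6, adjusted p = 3.75e-05), against 10.8% in Ctrl-KD cells (8.25 to 14.3). A second HMGB2 probe set, 236091_at, read 1.5 to 37.7 on the 6 arrays and was not tested. With it averaged in, HMGB2 was not called in any comparison, with -0.75 in Ctrl-KD against growing cells (adjusted p = 0.25), 1.24 between the OIS states (adjusted p = 0.114) and 0.49 in RB-KD against growing cells.

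HMGB3 moved in the same direction. In 203744_at it gave 819 and 878 in RB-KD, 553 and 626 in Ctrl-KD, and 2288 and 2086 in growing cells. It was 3.71-fold lower in Ctrl-KD than in growing cells (log2 fold change -1.89, SE 0.12, adjusted p = 3.09e-06) and 1.44-fold higher in RB-KD than in Ctrl-KD cells (0.53, adjusted p = 0.0165). RB-KD cells stayed below growing cells (-1.37, adjusted p = 3.50e-05). The rise between the OIS states was lost without the first Ctrl-KD array or either RB-KD array (adjusted p 0.0542 to 0.0819), and with the mean of both probe sets (0.0507). Its second probe set, 225601_at, with 285 and 316 in RB-KD, 250 and 214 in Ctrl-KD, and 905 and 770 in growing cells, gave -1.85 for Ctrl-KD against growing cells (adjusted p = 2.69e-05), -1.48 for RB-KD against growing cells (adjusted p = 0.000155) and 0.37 for RB-KD against Ctrl-KD cells (adjusted p = 0.166).

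HMGB1, which bends DNA in the nucleus and signals damage when released, was lower in Ctrl-KD than in growing cells in all 5 of its probe sets, with log2 fold changes between -0.74 and -1.25. Its brightest, 200680_x_at, gave 18731 and 18789 in RB-KD, 13423 and 15681 in Ctrl-KD, and 24464 and 24858 in growing cells. The log2 fold change was -0.77 in Ctrl-KD against growing cells (SE 0.09, adjusted p = 0.000125), 0.37 in RB-KD against Ctrl-KD cells (adjusted p = 0.0192) and -0.39 in RB-KD against growing cells (adjusted p = 0.00778). The second value did not pass without either growing array or without either RB-KD array (adjusted p 0.0541 to 0.0900) or in a fit of the compared states alone (0.0551), and the third did not pass without either growing array (adjusted p = 0.0619 and 0.0754) or with no trend (0.0966). HMGB1 has processed pseudogenes of near-identical sequence, and 3 of its probe sets carry the suffix x, so that their signals may hold other transcripts.

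The HMGB1 probe sets without that suffix gave 95% intervals between the OIS states that did not overlap. The brighter, 224731_at, read 9136 and 8746 in RB-KD, 7666 and 7572 in Ctrl-KD, and 13846 and 13846 in growing cells, with -0.86 for Ctrl-KD against growing cells (adjusted p = 2.29e-05) and 0.23 between the OIS states (95% interval 0.061 to 0.40, adjusted p = 0.0674, which passed with quantile normalization at 0.0340 and with the stricter filter at 0.0453). The dimmer, 224734_at, read 1306 and 1335 in RB-KD, 854 and 582 in Ctrl-KD, and 1706 and 1654 in growing cells, with 0.91 between the OIS states (95% interval 0.54 to 1.28, adjusted p = 0.00553). In RB-KD against growing cells it gave -0.35 (adjusted p = 0.147), which passed without the first or the second Ctrl-KD array (adjusted p = 0.0263 and 0.0241) and in a fit of the compared states alone (0.0206). Of the other x probe sets, 214938_x_at read 18908 and 15198 in RB-KD, 10779 and 13390 in Ctrl-KD, and 20170 and 20080 in growing cells. It gave 0.50 between the OIS states (adjusted p = 0.0250), a call that was lost without the first Ctrl-KD or the first RB-KD array (adjusted p = 0.106 and 0.171). The signals of 200679_x_at were 3039 and 3094 in RB-KD, 2493 and 2390 in Ctrl-KD, and 5048 and 4874 in growing cells. Here the value was 0.33 (adjusted p = 0.0292), which passed only without the first Ctrl-KD array among the 6 fits that left out 1 array (0.0712 to 0.103 in the other 5), and did not pass in a fit of the compared states alone (0.0785).

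**Figure D4:**
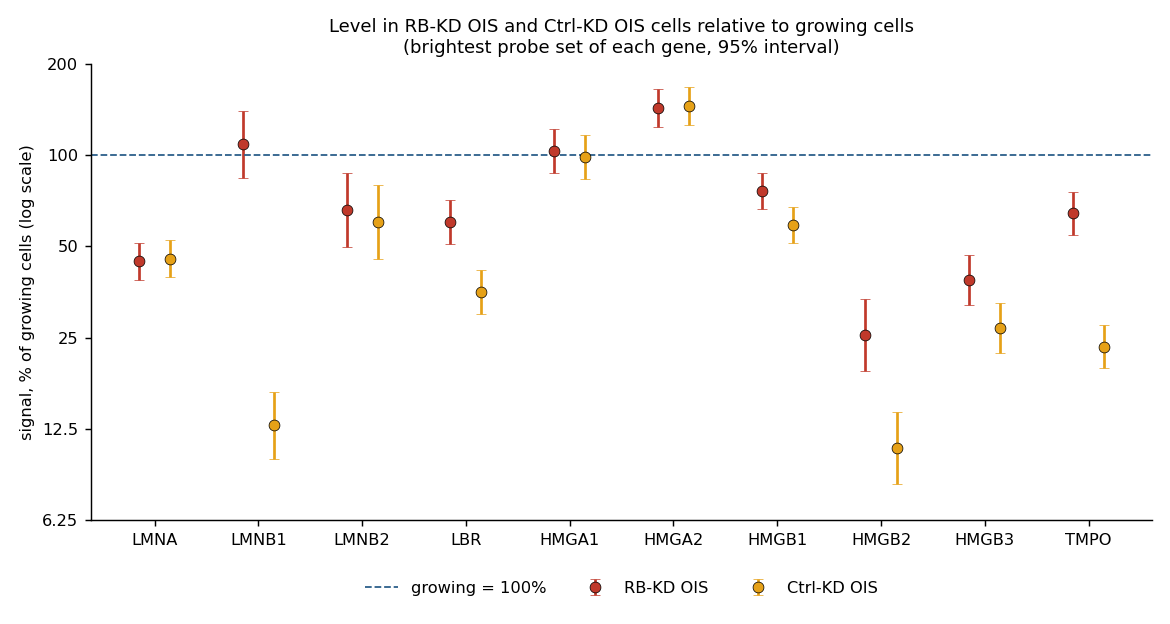
Signal of the brightest probe set of each gene in RB-KD and Ctrl-KD cells as percent of growing cells (y axis, log scale), with 95% intervals from limma. The dashed line is the growing level. LMNB1 is at 108% in RB-KD and 12.8% in Ctrl-KD cells, HMGB2 at 25.6% in RB-KD and 10.8% in Ctrl-KD cells, and HMGA2 is above the line in both.

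Ordered by the brightest probe set as percent of the growing signal, Ctrl-KD cells ran from HMGB2 (10.8%) and LMNB1 (12.8%) over TMPO (23.4%), HMGB3 (26.9%), LBR (35.3%), LMNA (45.5%), HMGB1 (58.8%) and LMNB2 (60.0%) to HMGA1 (98.6%) and HMGA2 (145%). In RB-KD cells the order was HMGB2 (25.6%), HMGB3 (38.8%), LMNA (44.7%), LBR (60.0%), TMPO (64.2%), LMNB2 (66.0%), HMGB1 (76.1%), HMGA1 (103%), LMNB1 (108%) and HMGA2 (143%). The 95% intervals of neighbours overlapped, except for LMNB1 and TMPO, LMNB2 and HMGA1, and HMGA1 and HMGA2 in Ctrl-KD cells, and for HMGB1 and HMGA1 in RB-KD cells. LMNB1 was second from the bottom in Ctrl-KD cells and second from the top in RB-KD cells.

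Lists of genes around the lamins and HMG proteins, each gene read from its brightest probe set, were counted in the same way. Of 16 tested genes of the inner nuclear membrane and of the LINC complex, which couples the nucleus to the cytoskeleton, 9 were lower and 2 higher in Ctrl-KD than in growing cells, and 6 were higher and 1 was lower in RB-KD cells against Ctrl-KD cells. Over all 13438 tested genes 20.7% were lower and 19.9% higher in the first comparison (40.6% in all), and 11.6% higher and 10.3% lower in the second (21.9%). The list's median log2 fold change was -0.48 in the first and 0.05 in the second, against -0.01 and -0.02 over all tested genes. SYNE2, which encodes the outer membrane protein nesprin-2, gave 488 and 589 in RB-KD, 78.6 and 64.3 in Ctrl-KD, and 429.8 and 391.8 in growing cells, with -2.53 for Ctrl-KD against growing cells (adjusted p = 1.19e-05) and 2.91 between the OIS states (adjusted p = 2.87e-05). SYNE3, which encodes nesprin-3, was higher in RB-KD than in Ctrl-KD cells by 1.68 (adjusted p = 0.0215). SUN1 and SUN2 connect nesprins to the lamina. SUN1 was lower in Ctrl-KD than in growing cells (-1.02) and higher in RB-KD than in Ctrl-KD cells (0.60, adjusted p = 0.00507), whereas SUN2 was lower in RB-KD than in growing cells (-1.02, adjusted p = 0.00253) with -0.29 between the OIS states (adjusted p = 0.338).

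Of 5 tested genes of prelamin A processing and binding, 2 were higher and 0 lower in Ctrl-KD than in growing cells (19.9% and 20.7% of all tested genes, list median 0.40). In RB-KD against Ctrl-KD cells 1 was higher and 2 were lower (11.6% and 10.3% of all, list median -0.32). NARF, whose protein binds the prelamin A tail, was higher in Ctrl-KD than in growing cells by 1.11 (adjusted p = 3.83e-05), and FNTA, the farnesyltransferase subunit, by 0.42 (adjusted p = 0.00291). Between RB-KD and Ctrl-KD cells ICMT, which methylates farnesylated ends, was higher by 0.99 (adjusted p = 0.000296), and FNTA (-0.32) and ZMPSTE24, the prelamin A protease (-0.35), were lower. FNTB was not tested.

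Among 15 tested nuclear pore genes 6 were lower and 1 higher in Ctrl-KD than in growing cells (20.7% and 19.9% of all tested genes). In RB-KD against Ctrl-KD cells 5 were higher and 0 lower (11.6% and 10.3% of all). The list medians were -0.35 and 0.28. NDC1, a transmembrane nucleoporin, was lower in Ctrl-KD than in growing cells (-1.34, adjusted p = 0.000104), as were NUP107 (-0.83) and NUP133 (-0.80) of the outer ring. NUP155 of the inner ring was higher in RB-KD than in Ctrl-KD cells by 0.91 (adjusted p = 0.000820).

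Of 15 other HMG genes tested, 7 were lower and 2 higher in Ctrl-KD than in growing cells (20.7% and 19.9% of all tested genes). In RB-KD against Ctrl-KD cells 3 were higher and 0 lower (11.6% and 10.3% of all). The list medians were -0.39 and 0.20. TOX, an HMG-box factor known from T cell development, gave 55.9 and 39.7 in RB-KD, 18.9 and 31.4 in Ctrl-KD, and 1022 and 859 in growing cells. It was at least 19.7-fold lower in Ctrl-KD than in growing cells. This value is given with no test, since TOX would not have passed the filter without the growing arrays, and TOX is among the 7 counted as lower. HMGN2, a nucleosome-binding HMG protein, was lower in Ctrl-KD than in growing cells (-1.12) and higher in RB-KD than in Ctrl-KD cells (0.59, adjusted p = 0.0109). HMGXB3 was higher in Ctrl-KD than in growing cells (1.42, adjusted p = 8.33e-05), and HMG20B, a subunit of a histone demethylase complex, was lower in RB-KD than in growing cells (-0.92, adjusted p = 0.00163).

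Of 17 tested genes of SAHF and heterochromatin, 3 were lower and 2 higher in Ctrl-KD than in growing cells (20.7% and 19.9% of all tested genes). In RB-KD against Ctrl-KD cells 3 were higher and 1 lower (11.6% and 10.3% of all). The list medians were -0.18 and 0.12. CBX5, which encodes HP1 alpha, gave 1879 and 2070 in RB-KD, 521 and 661 in Ctrl-KD, and 1326 and 1363 in growing cells (-1.20 for Ctrl-KD against growing and 1.75 for RB-KD against Ctrl-KD cells, adjusted p = 0.000111 and 5.68e-05). The histone variant gene MACROH2A1 was higher in RB-KD than in Ctrl-KD cells (0.74, adjusted p = 0.000336), DAXX, a chaperone of histone H3.3, was lower (-0.58, adjusted p = 0.0160), and the H3K9 methyltransferase gene SETDB1 was lower in RB-KD than in growing cells (-0.94, adjusted p = 0.0302). Among genes of HMGB1 release and its receptors, CXCL12, a chemokine that pairs with HMGB1, was above the array median on the growing arrays alone and is given with no test, with 28.9 and 30.1 in RB-KD, 1.5 and 28.1 in Ctrl-KD, and 399.8 and 692.6 in growing cells. Of the other 5 tested, 1 was lower and 0 higher in Ctrl-KD than in growing cells (20.7% and 19.9% of all tested genes). The 1 was the export receptor gene XPO1 (-0.46, adjusted p = 0.00303). In RB-KD against Ctrl-KD cells 2 of the 5 were higher and 0 lower (11.6% and 10.3% of all). They were XPO1 (0.31) and SIRT1 (0.66), a deacetylase (adjusted p = 0.0403 and 0.0176). The median of the 5 was -0.27 in Ctrl-KD against growing cells and -0.64 in RB-KD against Ctrl-KD cells.

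Genes of dividing cells were counted beside the lamins and HMGB genes. All 14 tested were lower in Ctrl-KD than in growing cells (20.7% of all tested genes, list median log2 fold change -2.39). In RB-KD against Ctrl-KD cells 8 were higher and 0 lower (11.6% and 10.3% of all, list median 1.19). Against growing cells, RB-KD cells had 8 lower and 4 higher (18.5% and 18.0% of all tested genes, 36.5% together). CCNE2, which encodes cyclin E2, was higher in RB-KD than in Ctrl-KD cells by 6.13 and CDK1 by 1.42 on the log2 scale, and MYBL2 was at least 2.66-fold higher, while TOP2A, with 0.56, was not called (adjusted p = 0.154). CDK1 and TOP2A were below the growing level in RB-KD cells (-2.10 and -3.04), whereas CCNE2 was above it (2.85). The part that the share of dividing cells has in the lamin and HMGB values was not tested.

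**Figure D5:**
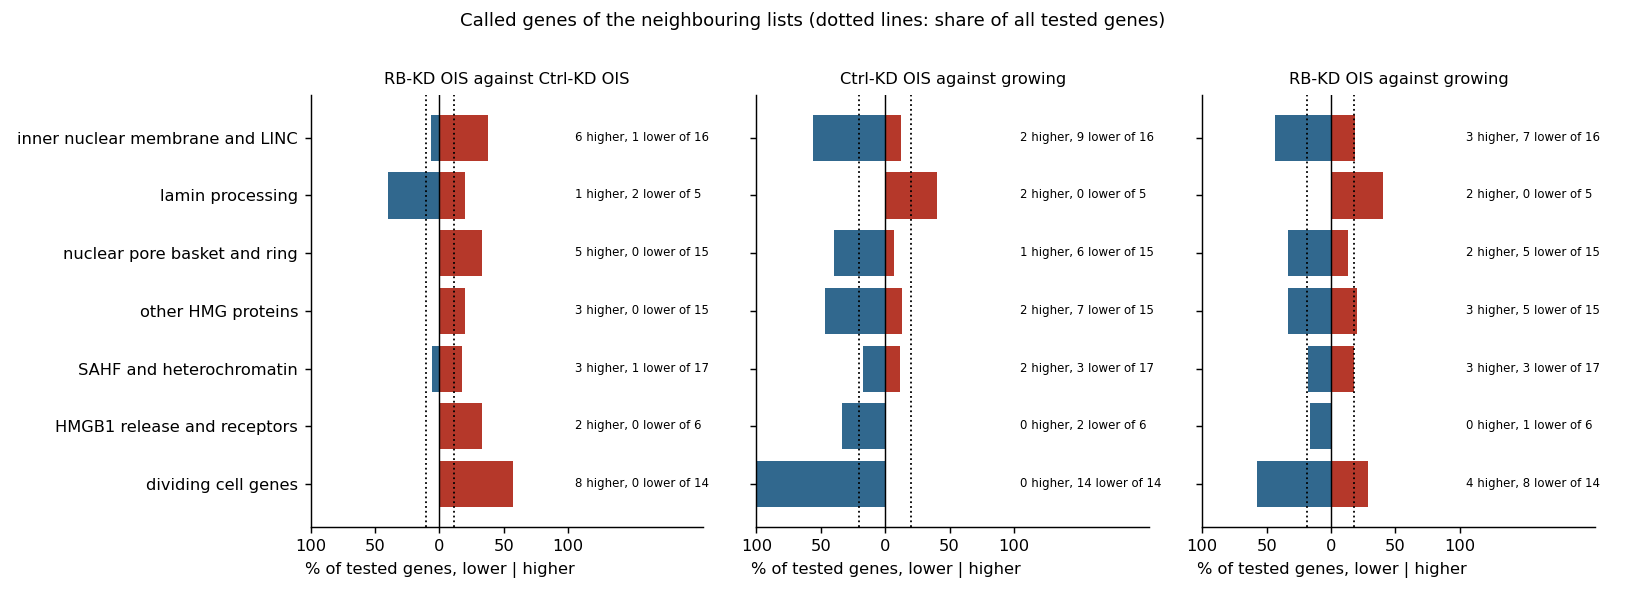
Share of tested genes called higher (right) or lower (left) in 7 gene lists, in percent (x axis), in 3 comparisons. Dotted lines are the shares over all 13438 tested genes, and the counts stand beside each bar (CXCL12 included in HMGB1 release and receptors). All 14 dividing cell genes are lower in Ctrl-KD than in growing cells.

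The patterns of LMNB1 and HMGA2 over the 6 arrays were set against those of the other 13437 tested genes, each centred on its own mean, by the root mean square difference of log2 signal. Nearest to LMNB1 were C1QTNF2 (0.12), TCF19 (0.15), SYNE2 (0.22), MCM6 (0.24) and CDCA7 (0.24). TCF19, for example, gave 816 and 972 in RB-KD, 82.9 and 99.3 in Ctrl-KD, and 834 and 849 in growing cells. Nearest to the brightest HMGA2 probe set were BTN3A2 (0.04), P4HA1 (0.05), SCAMP1 (0.05), ESCO1 (0.05) and NDFIP2 (0.06). P4HA1 gave 10935 and 9609 in RB-KD, 10795 and 9955 in Ctrl-KD, and 7351 and 7921 in growing cells. With 6 arrays these distances are a description, and flatter patterns lie closer together by construction.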

How the data were processed

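RNA of 6 samples was hybridized by the authors to Affymetrix U133 Plus 2.0 arrays, and the deposited intensities are MAS5 signals that the authors computed in Affymetrix Expression Console, with versions not given in the sources used here. The signals are linear, run from 0.1 to 64701, carry no detection call, and have trimmed means of 496.15 to 496.465 on the arrays, so that each array was scaled to a common level and a fold change is relative to the rest of its array. The number of arrays limits the precision. The paper states that the RNA came from 2 independent experiments. The labels call the samples of a state biological replicates and do not say that a number marks a shared culture or experiment, so p-values measure the spread between these samples. Replicates were compared and no pair was identical.

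Deposited signals were log2-transformed as they stand (offset 0), without renormalization. Gene symbols came from the platform annotation, in which 41091 probe sets name 1 gene, 1801 several and 11721 none. The older names H2AFY and H2AFY2 were read as MACROH2A1 and MACROH2A2 through RefSeq. Limma 3.58.1 (R 4.3.3) estimated 1 mean for each state from the 6 arrays, its prior variance was allowed to trend with brightness, p-values were adjusted by Benjamini-Hochberg at a threshold of 0.05, and the procedure was tested on simulated data. Tests were two-sided. Where every array of a state read a probe set below the array median, its fold is a bound ("at least") computed against that median. Promoters and motifs were read from RefSeq windows. Plots were made with matplotlib 3.10.9.

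The genes, lists, tests and alternatives were chosen with earlier results of these data known. Named are all probe sets of the 10 genes, RB1, up to 4 called genes of each list with the largest change in any comparison, and the 5 genes nearest in pattern to LMNB1 and to HMGA2. Tried as alternatives were median centring, quantile normalization, an offset of 16, no filter, a filter at percentile 70, the brightest probe set or the mean of the probe sets as 1 value per gene, no trend in the prior variance, a fit of only the compared states, the replicate number as a block, and the removal of 1 array at a time. With 2 arrays per state no outlier test was made. Other assays of the study were not analysed here.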

Additional observations from a re-analysis of the deposited data

How the results depend on the processing

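Of the calls on the 28 probe sets (TMPO 209754_s_at included), 20 of 25 in Ctrl-KD against growing cells, 12 of 18 in RB-KD against growing cells and 3 of 15 in RB-KD against Ctrl-KD cells (LMNB1 and the TMPO probe sets 224944_at and 203432_at) held under every alternative that gave them a value. With no trend in the prior variance, probe sets of the 10 genes called higher and lower in RB-KD against Ctrl-KD cells were 3 and 0, genes higher by their brightest probe set 2, and all probe sets 782 and 359, and the brightest HMGA2 probe set was not called, which left 0 genes higher by their brightest probe set in either OIS state against growing cells (HMGA2 1558682_at, 1558683_a_at and 1561633_at were called higher in both; 2684 probe sets of all higher in RB-KD). Taking 1 brightest probe set per gene gave 2749 higher and 2846 lower genes in Ctrl-KD against growing, 1687 and 1555 in RB-KD against Ctrl-KD, and 2486 and 2554 in RB-KD against growing cells, with fewer features tested. The mean of the probe sets of a gene gave 1730 and 1854, 874 and 775, and 1453 and 1586, with 4 of the 10 genes lower in RB-KD than in growing cells. In that setting the sign turned for LMNA between the OIS states (0.19) and, in RB-KD against growing cells, for HMGA1 (-0.18), HMGB2 (0.49) and TMPO (0.043), the means of HMGB2 and TMPO holding untested dim probe sets. Median centring turned HMGA1 206074_s_at to 0.072 in Ctrl-KD against growing cells, moved the median of all probe sets in RB-KD against growing cells to 0.04, against -0.07, and the share of higher among its calls to 58.0%, against 46.0%.

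With 1 array left out, the remaining array of its state is assumed to vary like the others. All probe sets lower in Ctrl-KD than in growing cells then numbered 3553 to 5460, and lower in RB-KD than in growing cells 2824 to 5337. In RB-KD against Ctrl-KD cells 1497 to 2502 of all were higher and 1156 to 1814 lower, and of the 28 probe sets 6 to 10 were higher (6 without the first and 7 without the second RB-KD array) and 1 to 3 lower (1 without either Ctrl-KD array or the first RB-KD array). Uncalled differences that turned sign between the OIS states ranged from -0.10 to 0.14 in LMNA 1554600_s_at, -0.12 to 0.064 in LMNA 203411_s_at, -0.22 to 0.36 in LMNA 214213_x_at, -0.087 to 0.21 in HMGA1 206074_s_at, -0.12 to 0.079 in HMGA2 208025_s_at and -0.18 to 0.46 in LMNB2. In RB-KD against growing cells they ranged from -0.70 to 0.14 in HMGA2 1559891_at, -0.15 to 0.39 in LMNB1 and -0.11 to 0.19 in HMGA1 206074_s_at. Arrays with the same replicate number did not deviate together (correlations 0.04, -0.01 and 0.01 over probe sets). Whether a number marks a shared culture or experiment cannot be told from these values. A replicate block gave 2932 higher and 2646 lower probe sets between the OIS states and added 1 call on the 10 genes, HMGA2 1567224_at in RB-KD against growing cells (0.67, adjusted p = 0.0306, against 0.0813). The causes of these changes were not tested.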
